A study of Mus musculus with 31 samples.

Results

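The genes described here are 9 transcription factors and cofactors of the bipotential gonad, the embryonic organ that can become either a testis or an ovary: Nr5a1, Nr0b1, Emx2, Wt1, Lhx9, Six4, Cbx2, Gata4 and Zfpm2. A probe set stood for a gene only if that gene was its single annotated symbol, and where a gene had several such probe sets, the one with the highest mean log2(signal + 16) over all arrays was taken. The 9 members are among 18193 genes named on the arrays. All 9 were among the 11777 genes that passed the filter on low signal and were tested.

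These factors build the genital ridge before its sex is decided. WT1, EMX2, LHX9, CBX2 and SIX4 take part, and most of them are needed for the ridge to grow and to switch on Nr5a1, the gene of the nuclear receptor NR5A1 (SF1), and GATA4 with its partner ZFPM2 (FOG2) acts beside them on Sry, the Y-linked gene that starts testis formation. In the mouse, many of them stay on after the decision in the supporting cells, the steroid-producing cells or the surface epithelium, so their later level depends on which of these cells a gonad contains.

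Arrays measured whole gonads of mouse fetuses at embryonic day 14.5, freed of the mesonephros, with 1 pair of gonads per array and 31 arrays in all. Every fetus carried Sf1-cre+/Tg, a Cre transgene whose regulatory sequence is that of Nr5a1 itself, so deletion takes place in somatic cells that express a member of the set. The knockout genotypes were Ctnnb1f/f; Sox9f/f (DKO), Ctnnb1+/f; Sox9f/f (Sox9KO) and Ctnnb1f/f; Sox9+/f (Ctnnb1KO), and the controls (Ctr) were Ctnnb1+/f; Sox9+/f, which means that they too carried Cre and 1 floxed allele of each gene. Each genotype was collected from XY and XX fetuses, 4 arrays per group except XY DKO with 3. SOX9 drives Sertoli cell differentiation in the testis, beta-catenin (Ctnnb1) carries the canonical WNT signal of the ovary, and the series asks what becomes of a gonad without one or both.

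Sox9 read 8.6 to 34.9 in XY DKO arrays and 7.1 to 41.7 in XY Sox9KO arrays, against 839.7 to 1024.9 in XY Ctr arrays. Ctnnb1 read 11001.8 to 14177.0 over all groups and did not separate the genotypes, and whether its probes lie in the deleted stretch was not tested. Median signal per array ran from 121 to 169. The array labelled XX Ctnnb1KO replicate 4 read 51.1 for Xist, where the other XX arrays read at least 7489.8, and 29.6 for the Y-linked Eif2s3y, where XY arrays read at least 2516.3. Called member differences, positions and list results of XX Ctnnb1KO against XX Ctr are given with and without it, while correlations and summed signals include it. The mesonephric marker list read low in every group, with a summed signal of 391 to 793 over 5 genes, 3 or 4 of them below the array median. Arrays have no read depth, and their number limits the precision.

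In what follows, signal is the deposited linear MAS5 value, a difference is one of log2(signal + 16) between group means, and a gene is called where the Benjamini-Hochberg adjusted p over all 11777 genes was under 0.05 in a limma fit of all arrays. Levels are compared between groups for 1 gene, never between genes. Gene positions are those of RefSeq on GRCm38.p6. In whole gonads, fewer cells of a type and less RNA per cell cannot be told apart.

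**Figure D1:**
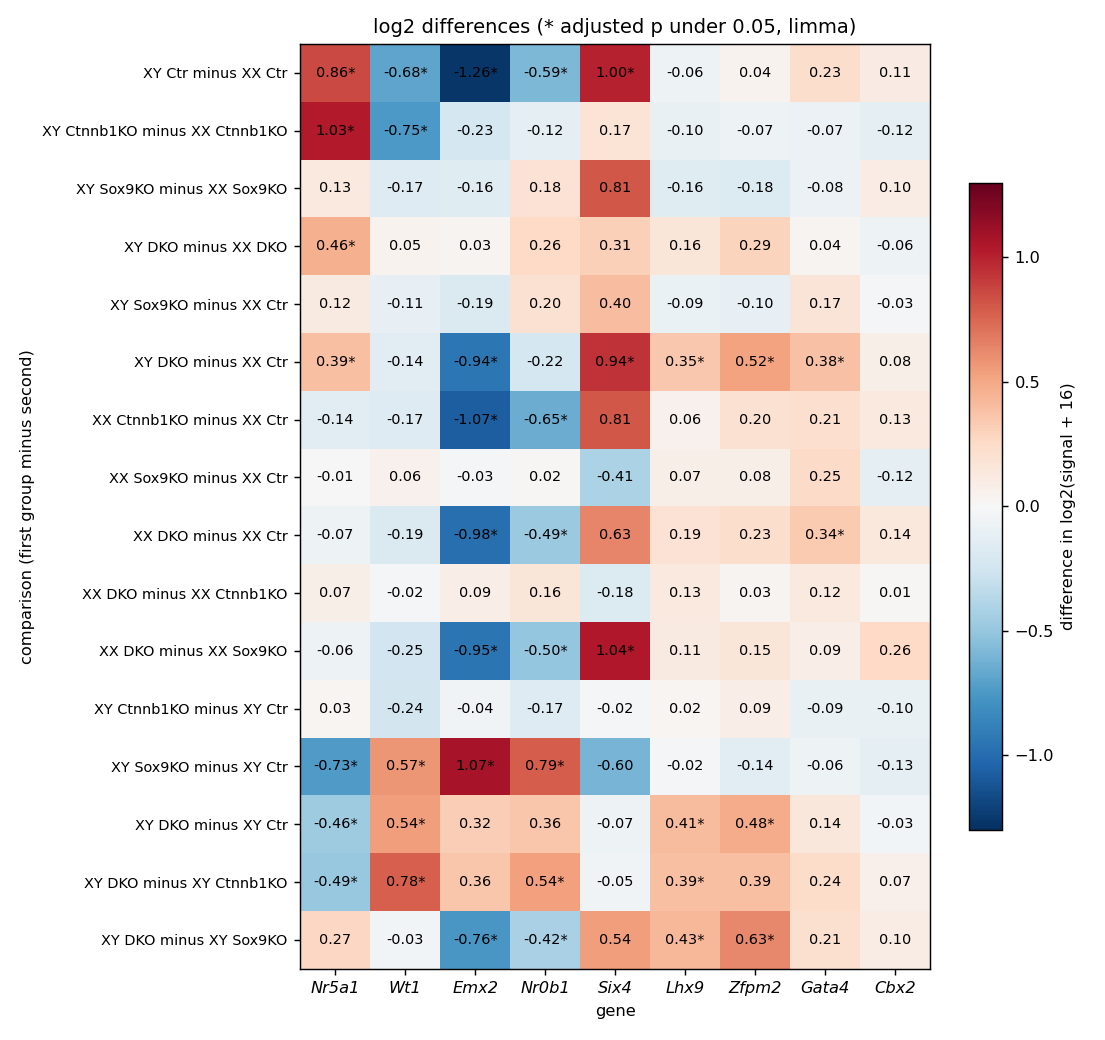
Differences in log2(signal + 16) for the 9 members (columns) in 16 comparisons (rows, first group minus second), with an asterisk where limma called the gene. Emx2 ran from -1.26 to 1.07, while Cbx2 stayed between -0.13 and 0.26 with no asterisk.

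Across 16 pairwise comparisons and 9 members, 38 of 144 differences were called. That is 26.4% of the member differences, where 14.4% of the differences of all tested genes over the same 16 comparisons were called. The comparisons share arrays, so neither share counts independent results. Emx2, Nr0b1 and Nr5a1 were called in 7 comparisons each, Wt1 in 5, Lhx9 in 4, Six4 and Zfpm2 in 3 each, Gata4 in 2 and Cbx2 in 0, although 1 Cbx2 difference had an unadjusted p under 0.05. The spread between the highest and the lowest group mean was 1.41 for Six4, 1.301 for Emx2, 1.03 for Nr5a1, 0.98 for Wt1 and 0.96 for Nr0b1 on the log2 scale, against a median spread of 0.48 over all tested genes. For Cbx2 it was 0.26, and 12.5% of tested genes had a smaller one.

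The comparison of XY Ctr with XX Ctr asks how the members differ between testis and ovary. Nr5a1 and Six4 were higher in XY Ctr gonads and Emx2, Wt1 and Nr0b1 were lower, which makes 5 of 9 called where 37.8% of all tested genes were called. The members' median difference was 0.04, against -0.02 over all genes. The share of members called is near that of genes at large.

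Nr5a1 (chr2:38692656-38714542) encodes the nuclear receptor that governs the somatic gonad and the steroid-producing cells. In XY gonads its signal was 1722.5, 1644.6 and 2152.6 in DKO arrays, 1345.7, 1649.8, 1470.5 and 1595.5 in Sox9KO arrays, 2682.9, 2831.4, 2420.8 and 2407.6 in Ctnnb1KO arrays and 2649.1, 2475.2, 2504.1 and 2478.4 in Ctr arrays. In XX gonads it was 1548.3, 1103.9, 1264.9 and 1416.0 in DKO arrays, 1215.7, 1573.4, 1377.3 and 1390.3 in Sox9KO arrays, 1218.6, 1146.5, 1299.4 and 1379.8 in Ctnnb1KO arrays and 1504.3, 1441.9, 1196.0 and 1430.3 in Ctr arrays. The 8 XY arrays that kept an intact Sox9 allele were all above the other 23 arrays. In the order of group means, XY Ctr and XY DKO were the only neighbours whose arrays did not overlap.

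XY Ctr gonads averaged 2527 ± 83 and XX Ctr gonads 1393 ± 135 (SD, n = 4 each), a difference of 0.86 ± 0.10 (SE; limma adjusted p = 5.6e-08). Without Ctnnb1 the sex difference in Nr5a1 was 1.03 ± 0.10 (limma adjusted p = 2.31e-09), and 1.07 without XX Ctnnb1KO replicate 4 (limma adjusted p = 8.15e-09). There, Nr5a1 (higher) and Wt1 (lower) were 2 of 9 members called, where 32.5% of all genes were. XY Sox9KO gonads averaged 1515 ± 136, against 2527 ± 83 in XY Ctr, a difference of -0.735 ± 0.102 (SE; limma adjusted p = 8.56e-07). In XX gonads Sox9 loss gave -0.005, and the sex by Sox9 interaction was -0.73 (limma adjusted p = 0.00029). With no Sox9 in either sex, XY Sox9KO and XX Sox9KO gonads overlapped and differed by 0.13.

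XY DKO gonads averaged 1840 ± 274 (n = 3), between XY Ctr and XX DKO at 1333 ± 192. The difference was -0.46 from XY Ctr (limma adjusted p = 0.00314), 0.46 from XX DKO (limma adjusted p = 0.0108) and 0.39 from XX Ctr (limma adjusted p = 0.00838). The difference from XX DKO was 0.34 without XY DKO replicate 4 (limma adjusted p = 0.115) and 0.38 without XX DKO replicate 2 (limma adjusted p = 0.057), and that from XX Ctr was 0.28 without XY DKO replicate 4 (limma adjusted p = 0.0895). They also rest on the probe set. A second Nr5a1 probe set averaged 398 ± 159 in XY DKO and 354 ± 36 in XX DKO, with overlapping arrays, and the mean of both probe sets gave 0.27 against XX DKO (limma adjusted p = 0.321) and 0.03 against XX Ctr (limma adjusted p = 0.898). Against XY Ctr the second probe set was lower as well, at 398 ± 159 in XY DKO and 864 ± 135 in XY Ctr, without overlap.

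A list of steroidogenic and Sertoli genes that NR5A1 is known to regulate was set beside it. Of 12 tested, 12 were higher in XY Ctr than in XX Ctr, where 37.8% of all genes were called. Their median difference was 2.59, against -0.02 over all genes. Cyp11a1, which makes the first step from cholesterol to steroids, read 7902 in XY Ctr and 31.2 in XX Ctr, Cyp17a1 13128 in XY Ctr and 112 in XX Ctr, Scarb1, a cholesterol importer, 3723 in XY Ctr and 795 in XX Ctr, and Star, which moves cholesterol into the mitochondrion, 3842 in XY Ctr and 291 in XX Ctr. In XY Sox9KO against XY Ctr all 12 fell, with a median of -2.70, where 38.7% of all genes were called. In XY DKO against XY Sox9KO 11 of 12 were higher, with a median of 1.46, where 21.8% of all genes were called. Nr5a1 itself differed by 0.27 there, with overlapping arrays (limma adjusted p = 0.077, and 0.35 with limma adjusted p = 0.048 without XY DKO replicate 3). Cyp11a1 read 2665 in XY DKO and 15.7 in XY Sox9KO, and Star 1658 in XY DKO and 303 in XY Sox9KO. In XX Ctnnb1KO against XX Ctr 6 rose and 1 fell, with a median of 0.94, where 10.1% of all genes were called. Star rose to 732 in XX Ctnnb1KO, against 291 in XX Ctr, Inha, the inhibin alpha subunit, to 1204 in XX Ctnnb1KO, against 559 in XX Ctr, and Vnn1, a Sertoli gene, to 1578 in XX Ctnnb1KO, against 643 in XX Ctr. Nr5a1 differed by -0.14 in that comparison, with overlapping arrays. Without XX Ctnnb1KO replicate 4, 6 of the list again rose and 1 fell, with a median of 1.02, and the differences were 1.34 for Star, 1.09 for Inha and 1.26 for Vnn1, each called.

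Markers of 2 cell types that express Nr5a1 ran beside it between groups. The summed signal of 4 fetal Leydig genes was 12099 to 15674 in XY DKO, 1948 to 2426 in XY Sox9KO and 32849 to 37935 in XY Ctr, against 1407 to 2006 in XX Ctr. That of 10 Sertoli genes was 5616 to 6017 in XY DKO, 2658 to 3166 in XY Sox9KO and 25001 to 29279 in XY Ctr, against 2629 to 3167 in XX Ctr, where 5 of the 10 lay below the array median. Cyp11a1, Cyp17a1, Star and Hsd3b1, the 4 Leydig genes, are also in the NR5A1 target list, as are Amh and Vnn1 of the Sertoli genes. Over the 31 arrays Nr5a1 correlated at r = 0.92 with the Leydig sum and at r = 0.89 with the Sertoli sum. For deviations from group means these were r = -0.03 and r = -0.39. The part of cell numbers in the Nr5a1 result was not tested.

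**Figure D2:**
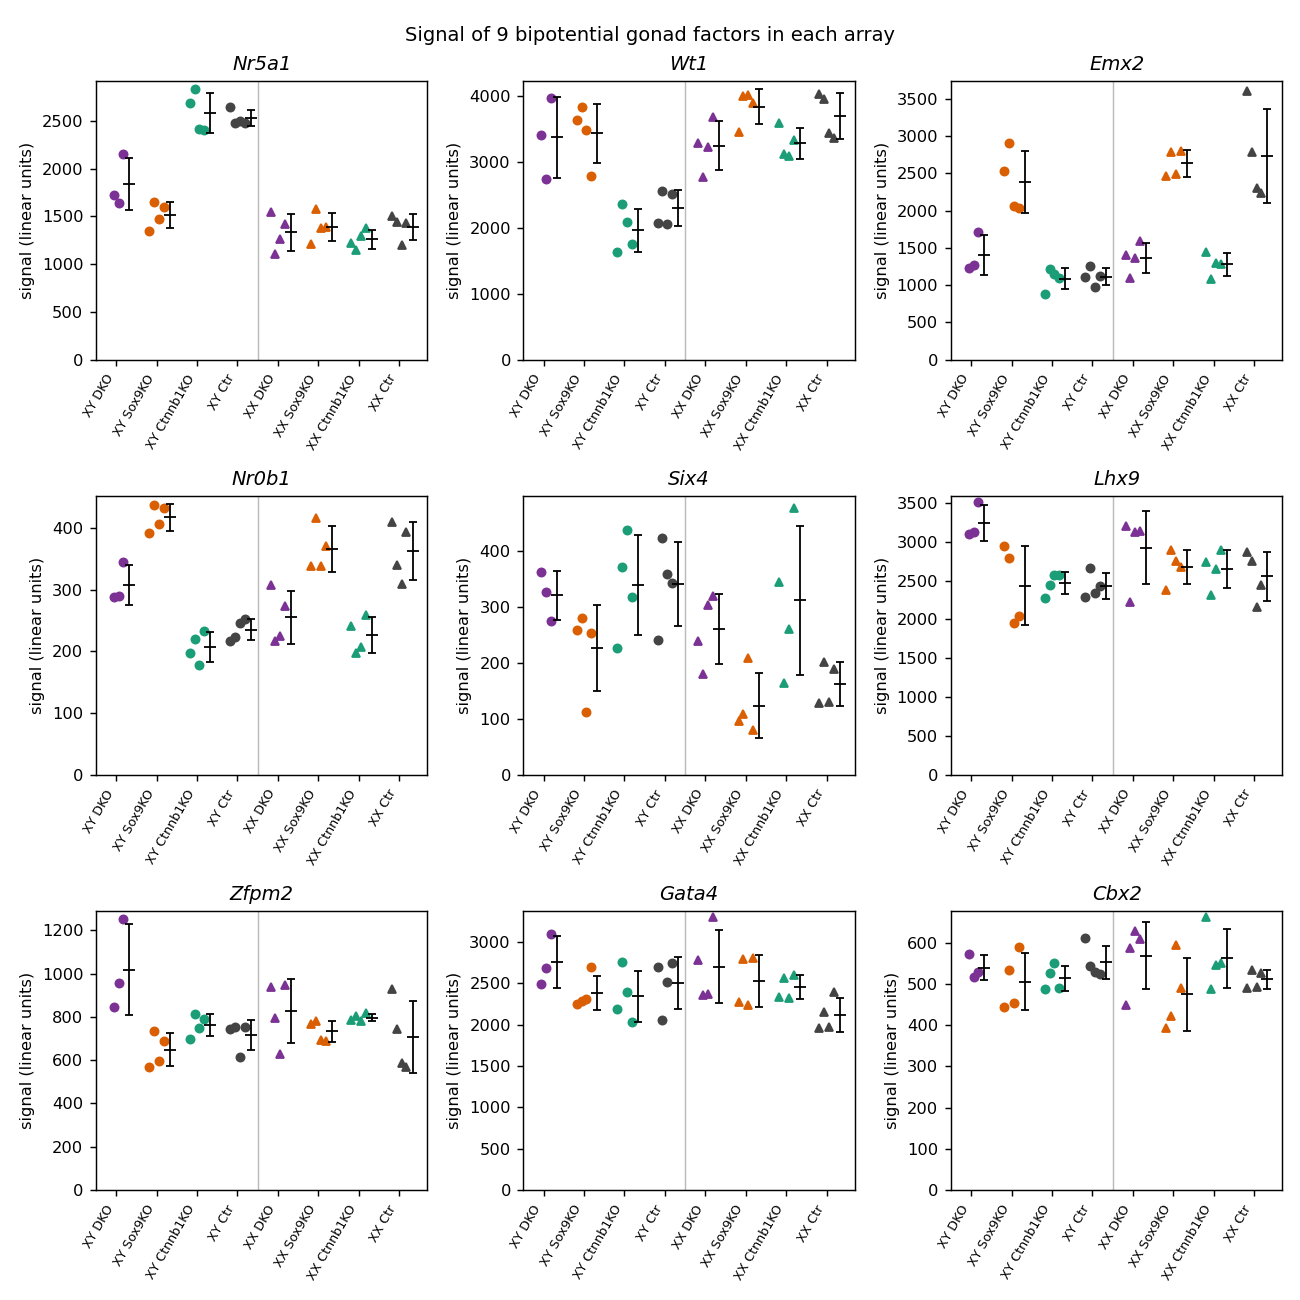
Signal (linear units) of each member in each array, with XY groups left of the grey line and XX groups right of it (circles and triangles are arrays, bars are mean and SD, n = 4 per group and 3 in XY DKO). Nr5a1 is high in XY Ctr and XY Ctnnb1KO arrays, while Emx2 and Nr0b1 are high in both Sox9KO groups and in XX Ctr.

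Nr0b1 (chrX:86191775-86195947) encodes DAX1, an X-linked nuclear receptor that represses NR5A1. In XY gonads its signal was 287.8, 290.0 and 345.2 in DKO arrays, 392.5, 437.8, 406.3 and 432.4 in Sox9KO arrays, 198.3, 220.1, 178.1 and 233.6 in Ctnnb1KO arrays and 217.6, 223.8, 246.6 and 252.2 in Ctr arrays. In XX gonads it was 308.0, 216.5, 224.5 and 273.6 in DKO arrays, 338.3, 416.9, 339.3 and 370.5 in Sox9KO arrays, 242.0, 196.9, 207.1 and 259.0 in Ctnnb1KO arrays and 409.8, 340.8, 308.7 and 393.0 in Ctr arrays. XY Sox9KO had the highest mean of the 8 groups and XY Ctnnb1KO the lowest. No neighbouring groups in the order of means were free of overlap, so the order is a gradient of overlapping groups.

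XY Ctr averaged 235 ± 17 and XX Ctr 363 ± 47, a difference of -0.59 ± 0.12 (limma adjusted p = 0.00024). Loss of Sox9 took XY gonads past the ovary mean, to 417.3 ± 21.5 in XY Sox9KO, against 235 ± 17 in XY Ctr (0.79 ± 0.12, limma adjusted p = 4.35e-06). Its difference from XX Ctr, 0.20, was not called. With loss of Ctnnb1 Nr0b1 fell in XX gonads to 226 ± 29, against 363 ± 47 in XX Ctr (-0.65 ± 0.12, limma adjusted p = 0.000289). Without XX Ctnnb1KO replicate 4 this was -0.71 (limma adjusted p = 0.000266). In XX DKO against XX Ctr it was -0.49 (limma adjusted p = 0.00566), and limma adjusted p was 0.0688 when only the arrays of that comparison were fitted. On the Sox9-deficient background the Ctnnb1 effect was again negative in both sexes, -0.42 in XY DKO against XY Sox9KO (limma adjusted p = 0.0186) and -0.50 in XX DKO against XX Sox9KO (limma adjusted p = 0.00394). In XY gonads with Sox9 it was -0.17 and not called. The XY DKO value of -0.42 fell short of the threshold without XY DKO replicate 2 (-0.38, limma adjusted p = 0.0756) and without replicate 3 (-0.39, limma adjusted p = 0.0705).

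XY DKO gonads averaged 308 ± 33 for Nr0b1, between XY Sox9KO at 417.3 ± 21.5 and XY Ctnnb1KO at 208 ± 24. They were 0.54 above XY Ctnnb1KO (limma adjusted p = 0.00437). Against XY Ctr the arrays did not overlap, and the difference of 0.36 was just short of a call (limma adjusted p = 0.052), but it was called with the replicate number as a block (0.37, limma adjusted p = 0.0335) and after quantile normalization (0.44, limma adjusted p = 0.0142).

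Emx2 (chr19:59458690-59465357) encodes a homeobox factor without which the mouse genital ridge and kidney fail to form. In XY gonads its signal was 1228.6, 1271.9 and 1708.0 in DKO arrays, 2536.1, 2901.8, 2062.8 and 2029.8 in Sox9KO arrays, 883.5, 1216.4, 1149.2 and 1098.3 in Ctnnb1KO arrays and 1105.2, 1250.4, 978.6 and 1125.9 in Ctr arrays. In XX gonads it was 1405.6, 1098.2, 1367.4 and 1594.1 in DKO arrays, 2463.2, 2779.8, 2491.1 and 2800.7 in Sox9KO arrays, 1447.3, 1078.4, 1295.1 and 1289.6 in Ctnnb1KO arrays and 3599.9, 2788.4, 2301.9 and 2240.5 in Ctr arrays. The arrays fell into an upper set of 3 groups, XX Ctr, XX Sox9KO and XY Sox9KO, whose lowest array read 2029.8, and a lower set of 5 groups, whose highest array read 1708.0. Within each set neighbouring groups overlapped.

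XY Ctr averaged 1115 ± 111 and XX Ctr 2733 ± 628, a difference of -1.26 ± 0.14 (limma adjusted p = 1.85e-08). XY Sox9KO averaged 2383 ± 416, against 1115 ± 111 in XY Ctr (1.07 ± 0.14, limma adjusted p = 3.56e-07). In XX gonads Sox9 loss gave -0.03, and the sex by Sox9 interaction was 1.10 (limma adjusted p = 0.000103). With loss of Ctnnb1 Emx2 fell in XX gonads to 1278 ± 152, against 2733 ± 628 in XX Ctr (-1.07 ± 0.14, limma adjusted p = 1.83e-06), and -1.08 without XX Ctnnb1KO replicate 4 (limma adjusted p = 1.14e-05).

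The Ctnnb1 effect on Emx2 could be read in 4 backgrounds. It was -0.76 ± 0.15 in XY DKO against XY Sox9KO (limma adjusted p = 0.000444), -0.95 ± 0.14 in XX DKO against XX Sox9KO (limma adjusted p = 1.09e-05) and -1.07 in XX Ctnnb1KO against XX Ctr. In XY Ctnnb1KO against XY Ctr it was -0.04, with a 95% interval of -0.33 to 0.25. The difference between sexes in the effect on the Sox9-intact background was 1.03 ± 0.20 (limma adjusted p = 0.00129; 0.00277 without XX Ctnnb1KO replicate 4), and that between Sox9 backgrounds within XY gonads -0.72 ± 0.21 (limma adjusted p = 0.0244). The within-XY interaction was no longer called in 5 of 15 refits that each left out 1 array, with values of -0.62 to -0.66 there. Among the members, Emx2 alone was called for sex by Ctnnb1 loss (4.19% of all genes) and for Ctnnb1 by Sox9 loss in XY gonads (9.75% of all genes).

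**Figure D3:**
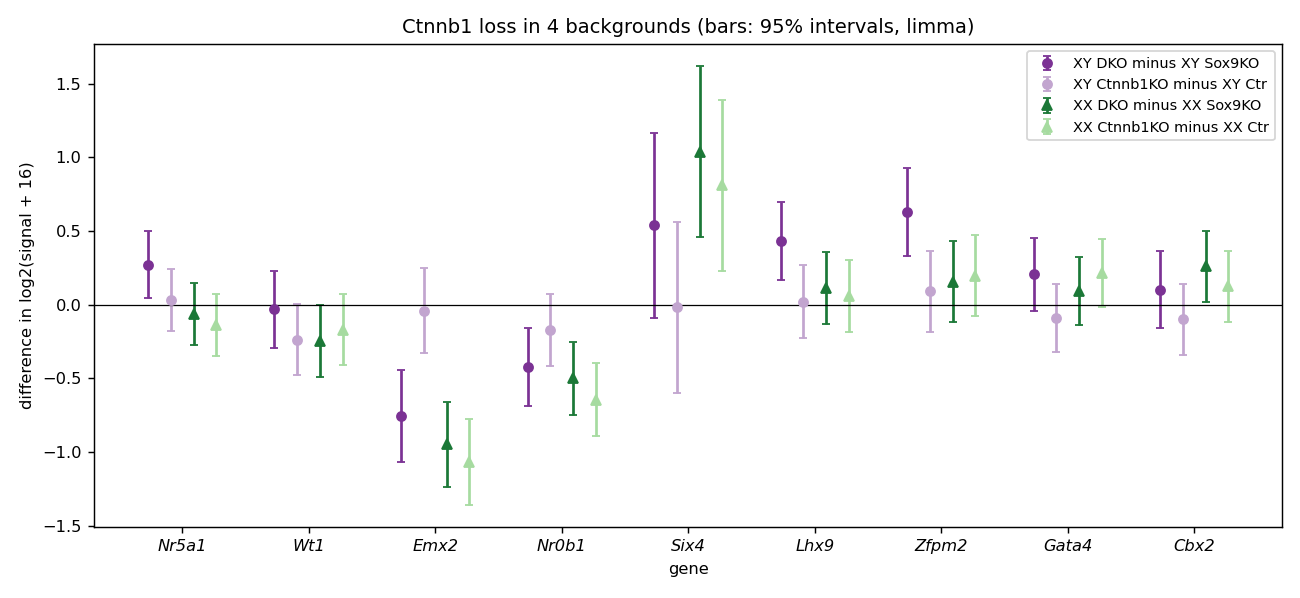
Difference in log2(signal + 16) made by Ctnnb1 loss for each member in 4 backgrounds (points; bars are 95% intervals from limma). Emx2 and Nr0b1 lie below 0 in XY DKO against XY Sox9KO and in both XX comparisons, while the XY Ctnnb1KO against XY Ctr interval of Emx2, -0.33 to 0.25, spans 0.

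Because Emx2 and Nr0b1 were the members with a called Ctnnb1 effect in 3 of 4 backgrounds, the 250 bases before their annotated starts are shown, from RefSeq on GRCm38.p6, plus strand, with every match to the searched motifs in capitals. Both strands were searched. The core bound by TCF/LEF, the factors that beta-catenin joins, was searched as TCAAAG. The letters used for the GC box were GGGCGG, and those for an NR5A1 site were AAGGNCA. The SOX core was taken as AACAAT, the core of GATA factors as AGATAA, and a site of WT1 and its EGR relatives as GCGNGGGCG.
Emx2, chr19:59458440-59458689: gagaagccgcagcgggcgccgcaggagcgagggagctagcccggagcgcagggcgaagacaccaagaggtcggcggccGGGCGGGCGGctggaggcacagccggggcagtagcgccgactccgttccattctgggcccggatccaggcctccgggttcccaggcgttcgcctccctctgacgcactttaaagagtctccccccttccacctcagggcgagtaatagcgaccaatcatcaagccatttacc
Nr0b1, chrX:86191525-86191774: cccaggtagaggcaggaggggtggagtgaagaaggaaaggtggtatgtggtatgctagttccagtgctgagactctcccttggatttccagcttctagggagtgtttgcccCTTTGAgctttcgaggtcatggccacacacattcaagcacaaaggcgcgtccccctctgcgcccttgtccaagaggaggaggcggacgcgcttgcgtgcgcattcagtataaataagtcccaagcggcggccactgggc
In Emx2 the capitals are 2 overlapping GC boxes, starting at positions 79 and 83 from the left. In Nr0b1 they are 1 TCF/LEF core read on the minus strand, at position 112. A TCF/LEF core was present in 13.8% of 32851 RefSeq promoter windows of the same length and a GC box in 32.7%, and the other 4 motifs, in 4.7% to 17.5%, had no match in either window. The GC content was 67.2% for Emx2 and 57.2% for Nr0b1, against a median of 52.4%. A match is a string of letters and not a shown binding site.

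On a scale where the XX Ctr mean is 0 and the XY Ctr mean is 100, XX Ctnnb1KO arrays stood at 84.8 ± 13.8 for Emx2 and at 110 ± 29 for Nr0b1. Without replicate 4 these were 85.4 ± 16.8 and 120.4 ± 24.5 (n = 3). XX DKO arrays stood at 77.6 ± 17.5 for Emx2 and 82.5 ± 38.5 for Nr0b1. XY Sox9KO arrays were at 14.8 ± 19.6 for Emx2, 16.3 ± 29.1 for Wt1 and 14.1 ± 15.2 for Nr5a1, which for these 3 genes is near the ovary end, at -34.0 ± 12.2 for Nr0b1, beyond it, and at 39.7 ± 56.5 for Six4. In XY DKO, Six4 stood at 93.5 ± 19.0, Emx2 at 74.9 ± 20.5, Nr5a1 at 45.8 ± 24.0, Nr0b1 at 38.1 ± 24.0 and Wt1 at 21.1 ± 39.1 (SD, n = 3). The Nr5a1 position is that of its stronger probe set. The second one averaged 398 ± 159 in XY DKO, below 479 ± 86 in XX Ctr, with overlapping arrays. XX Ctnnb1KO stood near the testis end for Emx2 and Nr0b1 but at -16.4 ± 13.3 for Nr5a1 and 24.9 ± 14.7 for Wt1 (-21.5 ± 10.4 and 26.0 ± 17.8 without replicate 4). Six4 spread widely there, at 80.8 ± 61.4, and at 58.1 ± 50.4 without replicate 4. These positions share the 2 control groups that set the ends, and differences between genes on this scale were not tested.

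**Figure D4:**
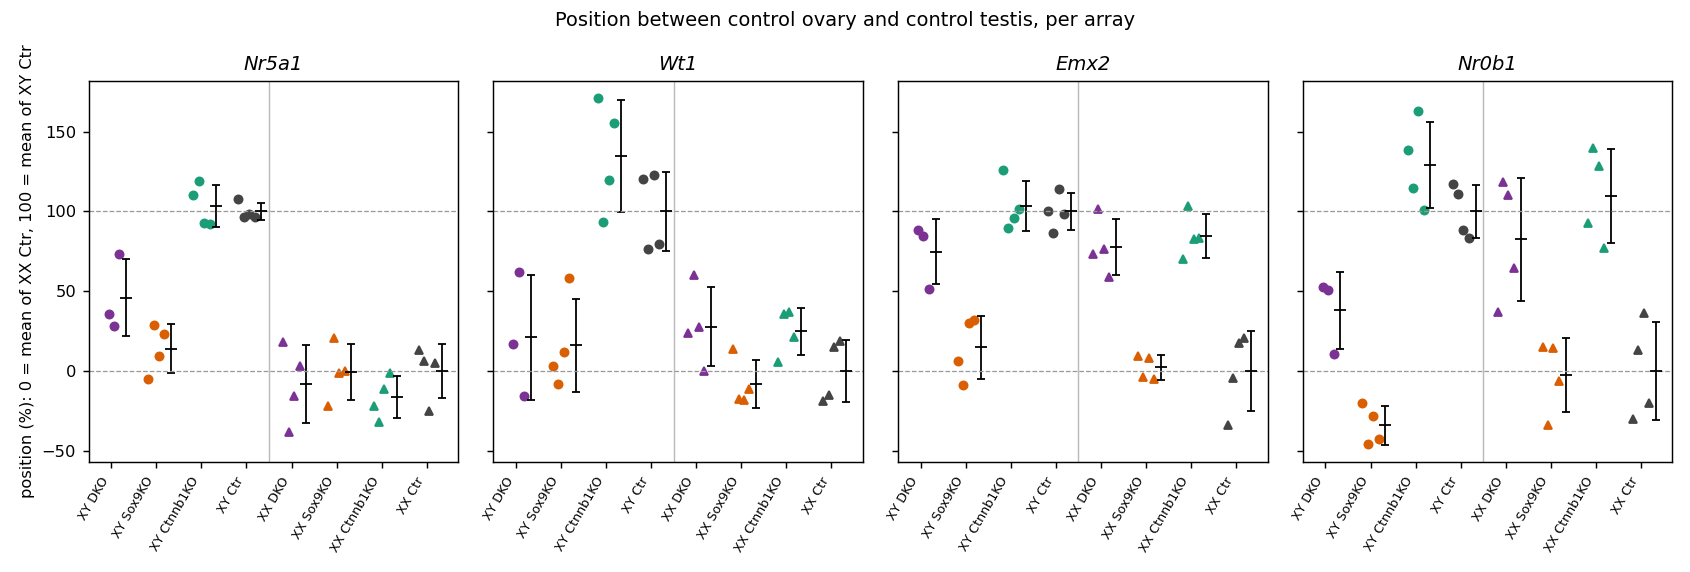
Position of each array (points) between the XX Ctr mean (0) and the XY Ctr mean (100), in percent, for Nr5a1, Wt1, Emx2 and Nr0b1 (bars are mean and SD). XX Ctnnb1KO arrays sit near 100 for Emx2 and Nr0b1 and near 0 for Nr5a1, and XY Sox9KO arrays lie below 0 for Nr0b1.

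Markers of the ovarian supporting cells ran beside Emx2 and Nr0b1, and beside Wt1 as well. The summed signal of 8 pregranulosa genes was 5714 to 6849 in XY DKO, 13233 to 14116 in XY Sox9KO and 1621 to 1805 in XY Ctr, where 6 of the 8 lay below the array median. It was 7051 to 8194 in XX DKO, 12410 to 14363 in XX Sox9KO and 6936 to 8308 in XX Ctnnb1KO, against 12553 to 13651 in XX Ctr. Of the 8, 7 were lower and 1 was higher in XX Ctnnb1KO than in XX Ctr, where 10.1% of all genes were called. Without XX Ctnnb1KO replicate 4 this was again 7 and 1 (8.18% of all genes). Over the 31 arrays Emx2 correlated with this sum at r = 0.81, and for deviations from group means at r = 0.50. These values were 0.76 and 0.63 for Nr0b1, and 0.88 and 0.54 for Wt1. The list holds Wnt4, Rspo1 and Lgr5, genes of the WNT pathway, and its part in the Emx2 and Nr0b1 results was not tested.

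Wt1 (chr2:105126529-105173614) encodes a zinc finger factor needed from the earliest genital ridge on and kept in Sertoli and pregranulosa cells. In XY gonads its signal was 3409.3, 2745.7 and 3974.3 in DKO arrays, 3633.9, 3834.8, 3490.0 and 2797.5 in Sox9KO arrays, 1635.2, 2369.0, 2088.9 and 1762.0 in Ctnnb1KO arrays and 2081.1, 2560.7, 2056.2 and 2524.3 in Ctr arrays. In XX gonads it was 3293.4, 2775.8, 3237.9 and 3693.5 in DKO arrays, 3456.4, 4005.9, 4019.7 and 3896.4 in Sox9KO arrays, 3594.5, 3117.7, 3094.0 and 3332.0 in Ctnnb1KO arrays and 4038.2, 3960.1, 3437.4 and 3374.1 in Ctr arrays. All 8 arrays of XY Ctr and XY Ctnnb1KO lay below the other 23, the mirror image of Nr5a1. XX DKO and XY Ctr were the only neighbours in the order of means without overlap.

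XY Ctr averaged 2306 ± 274 and XX Ctr 3702 ± 345, a difference of -0.68 ± 0.12 (limma adjusted p = 2.81e-05). Without Ctnnb1 the sex difference in Wt1 was -0.75 ± 0.12 (limma adjusted p = 1.08e-05), and -0.74 without XX Ctnnb1KO replicate 4 (limma adjusted p = 5.93e-05). Wt1 rose by 0.57 ± 0.12 in XY Sox9KO against XY Ctr (limma adjusted p = 0.000288), by 0.54 ± 0.13 in XY DKO against XY Ctr (limma adjusted p = 0.00318) and by 0.78 ± 0.13 in XY DKO against XY Ctnnb1KO (limma adjusted p = 4.79e-05). XY DKO and XY Sox9KO differed by -0.03 and XY DKO and XX DKO by 0.05, with overlapping arrays. The sex by Sox9 interaction of 0.52 (limma adjusted p = 0.0245) was lost in 4 of 16 refits without 1 array. None of the 4 Ctnnb1 comparisons called Wt1, whose differences there ran from -0.25 to -0.03, and 1 of the 4 intervals, that of XX DKO against XX Sox9KO, lay just below 0. Wt1, Emx2 and Nr0b1 have 1 probe set each, so the mean of all probe sets leaves their values unchanged. The antisense transcript Wt1os was the closest match of Wt1 among other genes (r = 0.93 over 31 arrays). Whether the Wt1 or the Wt1os probe set also binds the other transcript was not tested.

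Six4 (chr12:73099609-73114031) encodes a homeobox factor that acts on Nr5a1 and Zfpm2 in the mouse. Its signal was low, 275 to 362 in XY DKO, 112 to 281 in XY Sox9KO, 228 to 438 in XY Ctnnb1KO and 241 to 423 in XY Ctr. In XX gonads it was 181 to 319 in DKO, 80.3 to 209 in Sox9KO, 164 to 478 in Ctnnb1KO and 128 to 202 in Ctr. XY Ctr averaged 341 ± 75 and XX Ctr 162 ± 39, without overlap (1.003 ± 0.285, limma adjusted p = 0.00565). XY DKO differed from XX Ctr by 0.94 (limma adjusted p = 0.0231) and XX DKO from XX Sox9KO by 1.04 (limma adjusted p = 0.0119). The call in XY DKO against XX Ctr was lost in 4 of 7 refits without 1 array (XX Ctr replicate 1 or 3, XY DKO replicate 2 or 3; the highest limma adjusted p was 0.0862), and that in XX DKO against XX Sox9KO without XX Sox9KO replicate 4 (0.89, limma adjusted p = 0.0616).

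In XX Ctnnb1KO against XX Ctr, Six4 differed by 0.81 and was not called, but it was called without XX Ctnnb1KO replicate 2 (1.07, limma adjusted p = 0.0127). Replicate 4 of that group, the array without Xist signal, had its highest value, 477.9. Without it the difference was 0.58 (limma adjusted p = 0.296). The other 3 Six4 probe sets averaged 200.8, 222.7 and 102.8 in XY Ctr, against 120.8, 127.7 and 64.7 in XX Ctr, with differences of 0.67, 0.78 and 0.57 and overlap in the first of these. In XX gonads germ cell markers ran beside Six4, with a summed signal of 8 genes of 19925 to 25727 in XX DKO and 17547 to 22658 in XX Ctnnb1KO, against 9666 to 18642 in XX Sox9KO and 10821 to 18101 in XX Ctr. In XY gonads the sum was 12020 to 26145 in DKO, 14660 to 17740 in Sox9KO, 11983 to 19254 in Ctnnb1KO and 14116 to 18343 in Ctr, so it averaged 15906 in XY Ctr and 15715 in XX Ctr, where Six4 differed. Six4 correlated with that sum at r = 0.58 over 31 arrays and at r = 0.59 for deviations from group means. Deviations correlated about as closely with the mesonephric (r = 0.64), erythroid (r = 0.59) and fetal Leydig (r = -0.65) sums. Its closest match beyond the members was Pprc1 (r = 0.92), followed by Utf1 (r = 0.91), a gene of pluripotent and germ cells. The part of germ cells in the Six4 values was not tested.

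Cbx2 (chr11:119023019-119031275) encodes a Polycomb chromatin reader whose loss in the mouse turns XY gonads towards ovary. It was the steadiest member. Its signal was 517 to 573 in XY DKO, 443 to 589 in XY Sox9KO, 487 to 550 in XY Ctnnb1KO and 525 to 611 in XY Ctr, and in XX gonads 449 to 629 in DKO, 393 to 593 in Sox9KO, 489 to 662 in Ctnnb1KO and 490 to 533 in Ctr. XY Ctr differed from XX Ctr by 0.11, with a 95% interval of -0.13 to 0.35. No comparison called it with limma. The difference nearest a call was that of XX DKO against XX Sox9KO, 0.26 (limma adjusted p = 0.155), and it passed without XX Sox9KO replicate 3 (0.37, limma adjusted p = 0.0317) or XX DKO replicate 1 (0.37, limma adjusted p = 0.0445). Of 10 other Polycomb genes, 1 was called in XY Ctr against XX Ctr, where 37.8% of all genes were. This was Phc2, higher in XY Ctr (2477 in XY Ctr and 1946 in XX Ctr, 0.35, limma adjusted p = 0.00219). In XY Sox9KO against XY Ctr 2 of the 10 were called (Bmi1, higher by 0.43, and Pcgf2, higher by 0.38), where 38.7% of all genes were.

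Lhx9 (chr1:138825186-138848839) encodes a LIM homeobox factor that activates Nr5a1 with WT1. Its signal was 3095.4, 3119.7 and 3507.5 in XY DKO arrays, while the other groups ran from 1950.3 to 3202.5. XX DKO came nearest, with 3202.5, 2220.9, 3126.4 and 3136.5. XY DKO averaged 3241 ± 231, against 2432 ± 508 in XY Sox9KO (0.43 ± 0.13, limma adjusted p = 0.0155), 2467 ± 140 in XY Ctnnb1KO (0.39, limma adjusted p = 0.0413) and 2432 ± 162 in XY Ctr (0.41, limma adjusted p = 0.0259). Against XX Ctr, at 2553 ± 319, it was 0.35 (limma adjusted p = 0.0456). The arrays of XY DKO did not overlap with those of any of these groups. XY Ctr and XX Ctr differed by -0.06, with a 95% interval of -0.31 to 0.18.

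These Lhx9 calls were near the threshold. The call against XX Ctr was lost in 5 of 7 refits without 1 array, and that against XY Ctnnb1KO in each of 7 refits without 1 array, at limma adjusted p values of 0.0511 to 0.128. That against XY Ctr was lost without XY Ctr replicate 1 or 3 or XY DKO replicate 3 or 4 (for the last, 0.35, limma adjusted p = 0.0962). That against XY Sox9KO was lost without XY Sox9KO replicate 3 or 4 or XY DKO replicate 4 (for the last, 0.38, limma adjusted p = 0.0817). Each of 3 other Lhx9 probe sets was higher in XY DKO than in XY Ctr as well, by 0.31 to 0.62, with overlap in 1 of the 3. The strongest of the 3 averaged 2449 ± 205 in XY DKO, against 2593 ± 297 in XX DKO. It differed by 0.24 from XY Sox9KO, 0.27 from XY Ctnnb1KO and 0.23 from XX Ctr, with overlapping arrays each time. The weaker ones lay 0.50 and 0.98 above XY Sox9KO without overlap. With the mean of all probe sets the call against XY Ctnnb1KO was lost (0.34, limma adjusted p = 0.0873).

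Zfpm2 (chr15:40655042-41104592) encodes FOG2, the partner that GATA4 needs to switch on Sry in the mouse. Its signal was 843.8, 957.4 and 1252.1 in XY DKO arrays, against 569.6, 735.8, 598.2 and 688.3 in XY Sox9KO arrays and 745.8, 751.8, 614.6 and 754.9 in XY Ctr arrays. XY DKO lay above both without overlap, by 0.63 ± 0.15 against XY Sox9KO (limma adjusted p = 0.00193) and by 0.48 ± 0.15 against XY Ctr (limma adjusted p = 0.0197). A second, weaker Zfpm2 probe set averaged 245 ± 17 in XY DKO, against 199 ± 59 in XY Sox9KO (0.32, overlapping) and 189 ± 33 in XY Ctr (0.36, no overlap). The call against XY Ctr was lost without XY DKO replicate 4 (0.33, limma adjusted p = 0.153) and without XY Ctr replicate 3 (0.41, limma adjusted p = 0.0735). Against XX Ctr, which read 568.2 to 928.4, XY DKO was 0.52 higher with overlapping arrays (limma adjusted p = 0.00758; 0.37 and limma adjusted p = 0.0851 without XY DKO replicate 4).

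In XX gonads that second probe set gave another picture. It averaged 220 ± 28 in XX DKO, 237 ± 18 in XX Sox9KO and 246 ± 19 in XX Ctnnb1KO, each without overlap with XX Ctr at 162 ± 10, while the stronger probe set overlapped in all 3 comparisons. With the mean of both probe sets Zfpm2 was called in XX Ctnnb1KO against XX Ctr (0.38, limma adjusted p = 0.0226). Which probe set follows the transcript more closely was not tested.

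Gata4 (chr14:63198914-63271712) encodes the GATA factor that starts genital ridge growth. Its highest array read 3303.7, in XX DKO, and its lowest 1965.1, in XX Ctr. It averaged 2760 ± 311 in XY DKO and 2704 ± 445 in XX DKO, against 2122 ± 203 in XX Ctr, with calls of 0.38 (limma adjusted p = 0.022) and 0.34 (limma adjusted p = 0.0442). XX DKO arrays overlapped with XX Ctr. The XX DKO call was lost in 5 of 8 refits without 1 array and the XY DKO call in 3 of 7, including the one without XY DKO replicate 4 (0.29, limma adjusted p = 0.124). A second Gata4 probe set averaged 1351 ± 188 in XX DKO and 1342 ± 127 in XX Ctnnb1KO, against 1036 ± 95 in XX Ctr, without overlap. In XY DKO it averaged 1159 ± 80, which was 0.16 above XX Ctr and 0.21 below XX DKO on the log2 scale, with overlapping arrays in both cases. In XY Ctr against XX Ctr, Gata4 differed by 0.23, with a 95% interval of 0.001 to 0.463, and was called without XY Ctr replicate 2 (0.32, limma adjusted p = 0.0296).

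Macrophage genes were high in both DKO groups and in XX Ctnnb1KO. The summed signal of 9 genes was 7353 to 9372 in XY DKO, 3903 to 4751 in XY Sox9KO, 4112 to 7185 in XY Ctnnb1KO and 3653 to 4808 in XY Ctr. In XX gonads it was 6718 to 8174 in DKO, 3352 to 3745 in Sox9KO, 4925 to 9131 in Ctnnb1KO and 2977 to 5168 in Ctr. Of 8 tested, 7 were higher in XX DKO and 5 in XX Ctnnb1KO than in XX Ctr, where 12.9% and 10.1% of all genes were called. Without XX Ctnnb1KO replicate 4, 5 were again higher in XX Ctnnb1KO, where 8.18% of all genes were called. Over 31 arrays the sum correlated at r = 0.53 with Zfpm2 and at r = 0.28 each with Lhx9 and Gata4, and for deviations from group means at r = 0.07, -0.38 and -0.11 in that order. The part of macrophages in the values of these members was not tested.

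Counts of called members per genotype comparison, read against all genes, were as follows. In XY Sox9KO against XY Ctr 4 of 9 were called (Nr5a1 lower; Wt1, Emx2 and Nr0b1 higher), where 38.7% of all genes were. In XY DKO against XY Sox9KO 4 were called (Lhx9 and Zfpm2 higher, Emx2 and Nr0b1 lower), where 21.8% were. In XY DKO against XY Ctr 4 were called (17.2% of all genes) and in XY DKO against XY Ctnnb1KO 4 (14% of all genes). These comparisons share arrays, so their counts are not independent.

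XY Ctnnb1KO and XY Ctr differed in 0 of 9 members by limma, 0 of them with an unadjusted p under 0.05, and 0.0679% of all genes were called. XX Sox9KO and XX Ctr differed in 0 of 9, 1 of them (Gata4, 0.25) with an unadjusted p under 0.05, and 0% of all genes were called. XX DKO and XX Ctnnb1KO differed in 0 of 9, with 0 at an unadjusted p under 0.05 and 0% of all genes called, and the counts of calls were also 0 without XX Ctnnb1KO replicate 4. In XX Ctnnb1KO against XX Ctr 2 of 9 were called (Emx2 and Nr0b1, both lower), where 10.1% of all genes were. In XX DKO against XX Sox9KO 3 were called (13.5% of all genes) and in XX DKO against XX Ctr 3 (12.9%), with Emx2 and Nr0b1 lower in both.

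In XY Sox9KO against XX Sox9KO limma called 0 of 9, 1 of them (Six4, 0.81) with an unadjusted p under 0.05, and 0.11% of all genes were called. Against XX Ctr, XY Sox9KO differed in 0 of 9, with 0 at an unadjusted p under 0.05, and 0.628% of all genes were called. XY DKO differed from XX DKO in Nr5a1 alone (5.22% of all genes), and from XX Ctr in 6 of 9 (26.2% of all genes): Nr5a1, Gata4, Lhx9, Six4 and Zfpm2 were higher and Emx2 was lower. The interaction of sex with Sox9 loss was called for Nr5a1, Wt1, Emx2 and Nr0b1 (23.3% of all genes), and that of sex with the double loss for Wt1, Emx2 and Nr0b1 (14.9%). For the interaction of both losses in XX gonads limma called 0 of 9, with 0 at an unadjusted p under 0.05, and 0% of all genes.

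Members were set beside each other over the 31 arrays as a description, since arrays of a group share their genotype. Emx2 and Nr0b1 moved together most closely (r = 0.87), followed by Wt1 and Emx2 (r = 0.77), while Wt1 and Nr5a1 ran against each other (r = -0.72). Around the group means, the last pair had r = 0.43 and Emx2 and Nr0b1 r = 0.47, so Wt1 and Nr5a1 ran against each other between groups and together within them. Of 36 pairs, 23 correlated positively over arrays and 32 around group means.

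**Figure D5:**
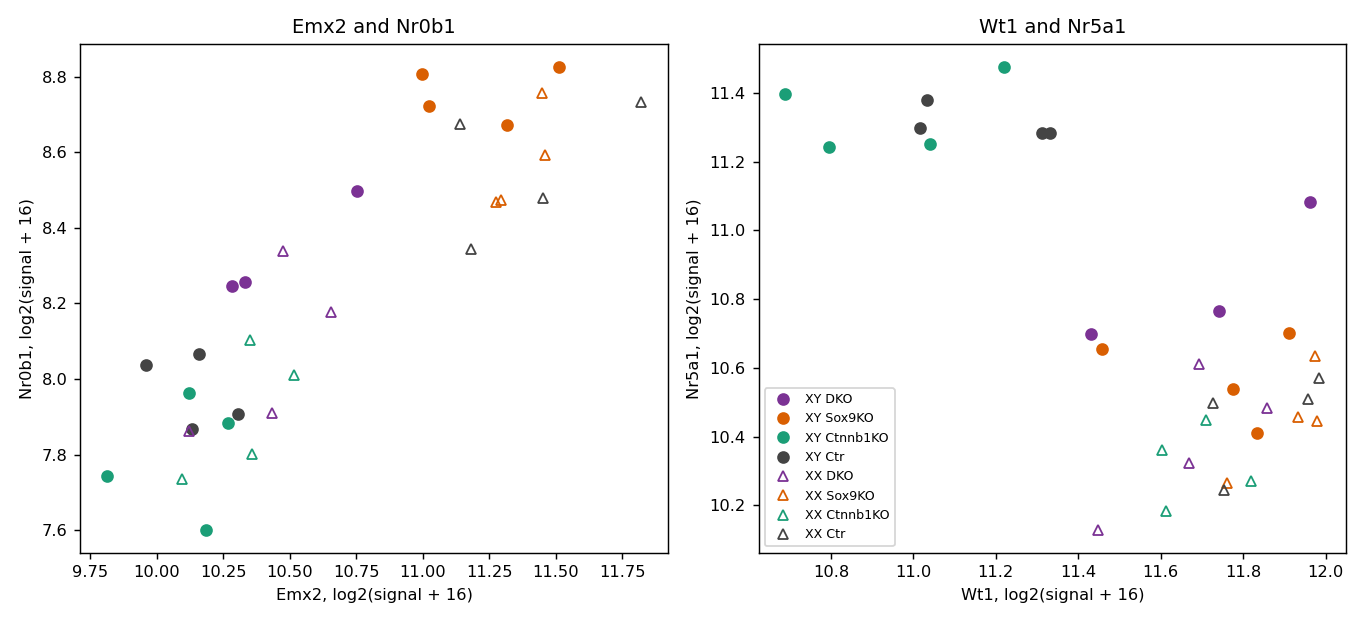
Left, Emx2 against Nr0b1, and right, Wt1 against Nr5a1, each as log2(signal + 16) with 1 point per array (filled circles XY, open triangles XX). Emx2 and Nr0b1 are high together in the Sox9KO groups and XX Ctr (r = 0.87). They are low together in XY Ctr, the Ctnnb1KO groups and XX DKO. The 8 XY Ctr and XY Ctnnb1KO arrays form a corner of high Nr5a1 and low Wt1.

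Genes outside the set that followed each member most closely were sought among 11285 tested genes. Emx2 was followed by Dcaf12l1 and Fam184b (r = 0.97 each) and Tcf12 (r = 0.96), Nr5a1 by Nav1, Vcan and Pltp (r = 0.95 each) and Nr0b1 by Klhl5, Klhl13 and Nipsnap1 (r = 0.92 each). Wt1 was followed, after Wt1os, by Reep1 (r = 0.92) and Denn2b (r = 0.91). The closest matches of 4 others were weaker, at r = 0.83 for Zfpm2 with Matn2, r = 0.82 for Lhx9 with Bach1, r = 0.70 for Cbx2 with Klhl21 and r = 0.67 for Gata4 with Adgrg1.

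Other genes of early gonad formation were taken from a list of 16. Of 13 tested, 4 were higher and 3 lower in XY Ctr than in XX Ctr, with a median of 0.12, against 37.8% called and a median of -0.02 over all genes. Tcf21, an interstitial and mesenchymal factor, read 5364 in XY Ctr and 2553 in XX Ctr (1.07, limma adjusted p = 1.45e-09), and Nr2f2, an interstitial nuclear receptor, 8133 in XY Ctr and 5009 in XX Ctr (0.70). Numb, a Notch inhibitor, read 1369 in XY Ctr and 2449 in XX Ctr (-0.83). In XY Sox9KO against XY Ctr 5 rose and 4 fell, with a median of -0.155 (38.7% of all genes called, median 0.05). Nr2f2 fell to 4848 and Igf1r to 1678 in XY Sox9KO, against 8133 and 2448 in XY Ctr, and Numb rose to 2497 and Gata6 to 2542 in XY Sox9KO, against 1369 and 1278 in XY Ctr.

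Sry was the only gene of that list called in XY DKO against XX DKO and in XY Sox9KO against XX Sox9KO. Its probe set read 228 in XY Ctr and 224 in XX Ctr, which carries no Sry, so the XY Ctr value is at the level of background (0.03, limma adjusted p = 0.919). It read 565 in XY DKO, against 156 in XX DKO (1.80, limma adjusted p = 1.02e-06), and 509 in XY Sox9KO, against 146 in XX Sox9KO (1.69, limma adjusted p = 1.85e-06). Sry was thus above background in the 2 XY groups without Sox9.

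Relatives of the members from the same gene families were listed too. Of 15 listed, 14 were on the arrays and 10 were tested, with 2 higher and 2 lower in XY Ctr than in XX Ctr, where 37.8% of all genes were called. Gata2, a paralog of Gata4, read 259 in XY Ctr and 1272 in XX Ctr (-2.20, limma adjusted p = 1.14e-08), and rose to 1464 in XY Sox9KO, against 259 in XY Ctr. Lhx2, a paralog of Lhx9, read 28.2 in XY Ctr and 137 in XX Ctr (-1.78). Nr5a2, the paralog of Nr5a1, rose to 452 in XX Ctnnb1KO, against 115 in XX Ctr (1.85, limma adjusted p = 4.8e-05), and to 430 in XY DKO, against 123 in XY Ctr (1.75). Lhx1, which is also a mesonephric marker, read 194 in XX Ctnnb1KO and 29.4 in XX Ctr (2.15). The control means given for Lhx2, Nr5a2 and Lhx1 all lie below 149.6, the lowest median signal of a control array. Without XX Ctnnb1KO replicate 4 the difference from XX Ctr was 1.95 for Nr5a2 and 1.93 for Lhx1, each called.

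Surface epithelium genes, which mark the layer in which several members are first switched on, were lower in XY Ctr than in XX Ctr for 6 of 8 tested and higher for none, with a median of -0.62. Over all genes 37.8% were called there, with a median of -0.02. Krt18, a keratin, read 568.1 in XY Ctr and 2018 in XX Ctr, and Upk3b, a mesothelial gene, 1785 in XY Ctr and 2806 in XX Ctr. In XY Sox9KO against XY Ctr 6 rose, where 38.7% of all genes were called, with Krt18 at 2552 in XY Sox9KO and 568.1 in XY Ctr. In XX Ctnnb1KO against XX Ctr, where Emx2 and Nr0b1 fell and 10.1% of all genes were called, 3 rose and 1 fell. Muc16 read 463 in XX Ctnnb1KO and 275 in XX Ctr (0.72, limma adjusted p = 0.000112). Without XX Ctnnb1KO replicate 4, Muc16 alone of the 8 was called (0.72, limma adjusted p = 0.000483) and none fell, where 8.18% of all genes were called. The summed signal of all 9 on the arrays was 8361 to 9045 in XY DKO, 9782 to 11306 in XY Sox9KO and 5098 to 5787 in XY Ctr, against 8451 to 10735 in XX Ctnnb1KO and 8341 to 9500 in XX Ctr.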

How the data were processed

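RNA from 31 pairs of gonads (40 ng per pair, amplified and biotin labelled, per the labels' protocols) was measured on Affymetrix arrays. The deposited values are MAS5 signal intensity on a linear scale, per the submitters' processing notes. Each array has a trimmed mean of 500.0, without the top and bottom 2% of values, so all values are relative within an array. Of 45101 probe sets, 64 were controls, 34945 had 1 gene symbol, 932 several and 9160 none in the platform annotation, and 34741 matched RefSeq by gene ID.

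Each gene took its probe set of highest mean log2(signal + 16). Genes above the array median on at least 3 arrays were kept, 11777 of 18193. One limma model (limma 3.58.1 in R 4.3.3, 8 group means, 31 arrays, trend in eBayes, Benjamini-Hochberg adjustment) gave 16 differences and 5 interactions. The text names the 9 members, the 3 most similar genes of each and up to 4 genes per list by smallest adjusted p. The members and the lists were chosen with earlier results of these data known. On simulated data for XX DKO against XX Ctr (11777 genes), 70.1% of 1.5-fold, 98.5% of 2-fold and 100% of 4-fold changes were recovered, with 8 false among 187 calls. The simulation used normal noise and changed only 67, 67 and 66 genes at these folds. The real comparison called 12.9% of genes, so these rates need not hold there. Replicates are separate pairs of gonads, and the labels name no batch. Replicate numbers were not used to pair samples in the main model. Alternatives were quantile normalization, a smaller and a larger number than 16 added to the signal, and no filter. Further ones were the mean of all probe sets of a gene, a replicate block, only the arrays of a comparison, and leaving out each array. Promoter sequences are from RefSeq (GRCm38.p6), and 4 of the 9 members were matched there.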

Additional observations from a re-analysis of the deposited data

Results flagged for a closer look

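In 63 groups of 4 arrays, 1 array stood far from the others for 5 member and group pairs by Dixon's test at the 95% level, and chance alone flags about 1 in 20 groups. Nr5a1 read 2649.1 in XY Ctr replicate 1, above the other XY Ctr arrays. Gata4 read 2694.1 in XY Sox9KO replicate 4, above the other arrays of that group. Lhx9 read 2220.9 in XX DKO replicate 2, Six4 112.4 in XY Sox9KO replicate 3 and Zfpm2 614.6 in XY Ctr replicate 3, each below the other arrays of its group.

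The effect of a knockout differed between XY and XX gonads, by a limma interaction term, in 8 cases. For Ctnnb1 loss the difference of effects (XY minus XX, log2) was 1.03 for Emx2. For Sox9 loss it was 1.10 for Emx2, 0.77 for Nr0b1, -0.73 for Nr5a1 and 0.52 for Wt1. For the double loss it was 1.29 for Emx2, 0.85 for Nr0b1 and 0.73 for Wt1.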

How the results depend on the processing

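No called member value changed sign under any alternative. Of alternatives for called member values, 688 kept the call and 66 lost it, and of those for values not called, 2361 stayed so and 17 gained a call. With the mean of all probe sets, members called numbered 0 in XY DKO against XX DKO (1 in the main analysis) and 4 in XX Ctnnb1KO against XX Ctr (2). With only the arrays of the comparison they numbered 0 in XY DKO against XX DKO (1), 3 in XY DKO against XX Ctr (6), 1 in XX DKO against XX Ctr (3) and 2 in XY DKO against XY Sox9KO (4). The cause was not tested, beyond the fewer arrays in the last setting.

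Leaving out 1 array at a time gave 5 to 6 members called in XY Ctr against XX Ctr, 0 to 1 in XY DKO against XX DKO, 2 to 6 in XY DKO against XX Ctr, 2 to 3 in XX Ctnnb1KO against XX Ctr, 2 to 3 in XX DKO against XX Ctr, 2 to 4 in XX DKO against XX Sox9KO, 2 to 4 in XY DKO against XY Ctr, 3 to 4 in XY DKO against XY Ctnnb1KO and 3 to 4 in XY DKO against XY Sox9KO. Among interactions it gave 0 to 1 for Ctnnb1 by Sox9 in XY gonads, 3 to 4 for sex by Sox9 loss and 3 to 4 for sex by double loss. In the other 9 comparisons and interactions the count did not move.

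In 0 of 16 comparisons did every same-numbered pair of arrays deviate together at a correlation over 0.1 (correlations of -0.448 to 0.537). Single pairs did, such as replicate 2 of XX DKO and XX Ctnnb1KO (0.537) and replicate 4 of XY DKO and XX DKO (0.363). Whether such pairs share a litter or batch was not tested. With the replicate number as a block, Nr0b1 was called in XY DKO against XY Ctr (0.37, limma adjusted p = 0.0335) and Zfpm2 in XY DKO against XY Ctnnb1KO (0.41, limma adjusted p = 0.048), and no other member call changed.

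Counts over all genes moved by over 1.5 times in some comparisons. XY Sox9KO against XX Sox9KO had 13 calls, and 25 after quantile normalization, 20 with the mean of probe sets, 8 with the block, 7 with only its arrays and 7 to 63 without 1 array. XY Sox9KO against XX Ctr had 74, and 120 after quantile normalization, 30 without the filter, 7 with only its arrays and 8 to 228 without 1 array. XY DKO against XX DKO had 615, and 179 with only its arrays and 349 to 391 in refits without 1 array that moved it. With only their arrays, XY DKO against XX Ctr had 2048 (3088) and XY DKO against XY Sox9KO 1705 (2572).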
